A study of Arabidopsis thaliana with 9 samples.

Results

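Transcripts of 10 antioxidant enzymes were followed in imbibed seeds of *Arabidopsis thaliana*. They are defined by a list of gene identifiers, with no threshold on measured values: the 1-Cys peroxiredoxin PER1 (AT1G48130), the catalases CAT1 (AT1G20630), CAT2 (AT4G35090) and CAT3 (AT1G20620), the copper/zinc superoxide dismutases CSD1 (AT1G08830), CSD2 (AT2G28190) and CSD3 (AT5G18100), the iron superoxide dismutase FSD1 (AT4G25100), and the ascorbate peroxidases APX1 (AT1G07890) and APX6 (AT4G32320). The list was chosen with earlier results of these data known. All 10 genes were found, each as an entry of its own, among 33557 genes. RNA was sequenced from seeds of 3 genotypes at 12 h of imbibition on agarose plates: the Columbia-0 wild type (WT) and loss-of-function mutants of the NAC transcription factor genes *NAC25* (*nac25*) and *NAC1L* (*nac1L*), with 3 biological replicates of each and 9 libraries in all. The labels name neither the mutant alleles nor how many independent lines stood behind each genotype. The analysed values are the authors' deposited table, which holds 1 log2 fold, p-value and adjusted q-value per gene and pair of genotypes, so levels, depth and the spread between libraries were not analysed here.

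A dry seed that takes up water restarts respiration, and superoxide and hydrogen peroxide form as by-products. Superoxide dismutases turn superoxide into hydrogen peroxide, with copper and zinc, iron or manganese as the metal. Hydrogen peroxide is then removed by catalases in peroxisomes, where the breakdown of seed oil also releases it, by ascorbate peroxidases, which spend ascorbate that the monodehydroascorbate, dehydroascorbate and glutathione reductases restore, and by peroxiredoxins and glutathione peroxidase-like enzymes, which depend on thioredoxins. PER1 is a peroxiredoxin found in embryo and aleurone of mature seeds and is associated with dormancy. A moderate level of these oxidants also acts as a signal in germination.

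All 10 genes had a test in all 3 comparisons, and a gene is called here where the deposited q is at or below 0.05. In *nac1L*, 6 of the 10 were called, 4 higher (CAT1, CAT3, CSD1 and CSD2) and 2 lower (FSD1 and APX1), where the share of calls among all 18233 tested genes was 28.5% (9.62% higher and 18.9% lower). In *nac25*, 5 were called, 3 higher (CAT1, CAT3 and PER1) and 2 lower (FSD1 and APX1), where that share was 39% of 18155 (6.25% higher and 32.8% lower). The median log2 fold of the 10 genes was 0.37 in *nac1L* and 0.11 in *nac25*, beside -0.07 and -0.27 over all tested genes. After folds were centred on those medians, 7 of the 10 were called in *nac1L* (5 higher and 2 lower; all genes 27.7%, with 12.4% and 15.2%) and 6 in *nac25* (4 higher and 2 lower; all genes 30.5%, with 15.8% and 14.8%). The added calls were PER1 in *nac1L* and CSD2 in *nac25*, both higher. Where p is at its smallest deposited value, the standard error is an upper bound, and a lower call can be lost after centring for that reason. Of the 10, 4 were called in the same direction in both mutants, 2 in *nac1L* alone, 1 in *nac25* alone and 3 (CAT2, CSD3 and APX6) in neither. Both comparisons use the same WT libraries, so a call shared by the mutants is not a repeat. The share of all tested genes called in both mutants was not computed, so these overlap counts have no background beside them. Because the list was chosen with earlier results of these data known, its counts beside the shares of all genes are no test of the family.

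**Figure D1:**
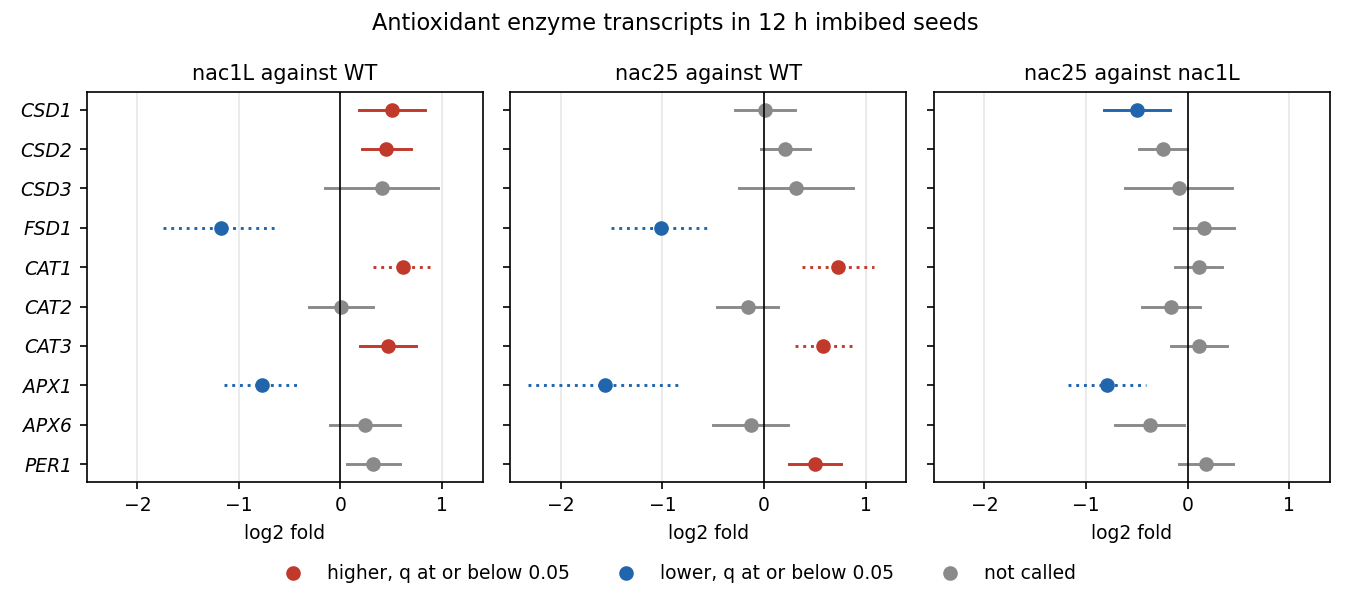
Log2 fold of the 10 enzyme transcripts in the 3 comparisons in the authors' deposited table (points; red higher and blue lower at q at or below 0.05, grey not called). Lines are approximate 95% intervals derived from the deposited p, dotted where p is at its smallest value and the line is the widest possible. FSD1 and APX1 lie below 0 in both mutants and CAT1 and CAT3 above it.

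Seeds hold embryo, endosperm and seed coat, and in such bulk RNA fewer cells of a type and less RNA per cell cannot be told apart. The seed label could be set against 9 storage reserve genes, of which 4 were left untested against WT for too many reads, and of the 5 tested 1 was higher and 2 lower in *nac1L* and 3 higher and 1 lower in *nac25*. Of 4 endosperm markers 2 were tested, EXPA2 and MAN7, and both were lower in both mutants. EPR1 was left untested for too many reads and ZOU for too few. Of 4 embryo markers 3 (LTP1, SHR and PDF1) were lower in both, with the call of PDF1 in *nac25* lost after centring. SHR had too few reads for a test between the mutants. The remaining embryo marker, ATML1, was called in neither (log2 -0.11, q = 0.539 in *nac1L*, and -0.11, q = 0.522 in *nac25*) in the authors' deposited table. None of 4 seed coat markers had enough reads for a test. By the authors' deposited table, the log2 fold of EXPA2 was -4.21 in *nac1L* and -4.88 in *nac25*. The targeted genes NAC25 (log2 -3.97 in *nac25* and -2.66 in *nac1L*) and NAC1L (-4.61 in *nac1L* and -1.89 in *nac25*) had too few reads for a test in the authors' deposited table. The part of these tissue markers in the values below was not tested. With 12 h as the single time, slower progress of mutant seeds and an effect of genotype at equal progress cannot be told apart.

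Among the superoxide dismutases, a pair of copper/zinc genes was higher and the iron gene lower in *nac1L*, and the iron gene was lower in *nac25*. FSD1, an iron enzyme of the plastid and cytosol that is known to accumulate when copper is scarce, had log2 folds of -1.18 in *nac1L* and -1.01 in *nac25* in the authors' deposited table, 2.26-fold and 2.02-fold below WT. Both have q = 0.000463, the lowest in the authors' deposited table. CSD1, the cytosolic copper/zinc enzyme, was 1.42-fold higher in *nac1L* (log2 0.51, q = 0.0131), whereas its log2 fold in *nac25* was 0.01 (q = 0.971; approximate 95% interval -0.29 to 0.31) in the authors' deposited table. The plastid enzyme CSD2 was 1.37-fold higher in *nac1L* (log2 0.45, q = 0.00193) and had a log2 fold of 0.21 in *nac25* (q = 0.205) in the authors' deposited table, a value that passed after centring (0.48, q = 0.00222). CSD3, the peroxisomal member, had log2 folds of 0.41 (q = 0.295) and 0.32 (q = 0.433) in the authors' deposited table. With an approximate standard error of 0.284 and 0.286, CSD3 was the least precise of the copper/zinc members, and its intervals of -0.15 to 0.96 and -0.24 to 0.88 include the folds of the other two in *nac1L*. From these folds, the ratio of CSD1 to FSD1 transcripts was 3.21-fold higher in *nac1L* than in WT and 2.03-fold higher in *nac25*, and that of CSD2 to FSD1 3.09-fold and 2.34-fold higher; these ratios had no test of their own.

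Copper supply is known to govern some of these genes. When copper is scarce, the factor SPL7 binds GTAC motifs and activates FSD1, the copper importer gene COPT2 and the genes of the microRNA miR398, and miR398 directs cleavage of CSD1, CSD2, the copper chaperone gene CCS and the cytochrome oxidase gene COX5B-1. The microRNA and the windows that match it best in these transcripts are shown because several of these genes were called in *nac1L*. There, CSD1, CSD2 and CCS were higher and FSD1 and COX5B-1 lower. Sequences are from RefSeq, TAIR10.1, found by gene identifier; the build behind the table is not given in the sources used here. In the microRNAs, 5′ to 3′, capitals mark the seed (bases 2 to 8), and all 3 share 1 seed.
miR398a (chr2:1041012-1041032, + strand): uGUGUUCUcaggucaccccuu
miR398b (chr5:4691107-4691127, + strand): uGUGUUCUcaggucaccccug
miR398c (chr5:4694778-4694798, + strand): uGUGUUCUcaggucaccccug
In the transcript windows, 5′ to 3′ as DNA, capitals mark bases that can pair with miR398b as A with U or G with C. A pair of G with U is in lower case and was counted as a mismatch, and an unpaired base is also in lower case.
CSD1 (5′ untranslated, across an intron, chr1:2827177-2827685, + strand): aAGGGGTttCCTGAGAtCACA
CSD2 (coding, chr2:12015572-12015593, + strand): tgcGGGTGACCTGgGaAACAtA
CCS (coding, chr1:4267521-4267542, - strand): CAttGGGaGACCTGgGAACACt
COX5B-1 (5′ untranslated, chr3:5299204-5299225, + strand): aAGGtGTGACCTGAGAAtCACA
APX6 (coding, chr4:15603926-15603946, + strand): CttGaGaGACCTGAGAACAtA
The search allowed 1 unpaired transcript base, counted like a mismatch, in 1 transcript of each of 27438 genes. CSD1 had 4 mismatches, a total that 7 genes, itself included, equalled or bettered. CCS had 4 mismatches and 1 unpaired base and APX6 5 mismatches, totals that 60 genes equalled or bettered. CSD2 had 5 mismatches and 1 unpaired base, a total that 557 genes equalled or bettered, and COX5B-1 had 2 mismatches and 1 unpaired base, which 2 genes, itself included, reached. CSD3 had 8 mismatches and FSD1 7, as few as in 52.3% and 13.6% of the genes searched. Because pairs of G with U, present in the CSD2 window, counted as mismatches, these totals do not rank the transcripts as miR398 targets. A matching window is a description, and no cleavage was measured. The part of copper supply in these values was not tested.

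CCS, which delivers copper to the copper/zinc enzymes, was higher in *nac1L* (log2 0.55, q = 0.000463) and in *nac25* (log2 0.35, q = 0.0189) in the authors' deposited table. COX5B-1, whose window matched best of those shown, was lower in *nac1L* (log2 -0.47, q = 0.000866) and in *nac25* (-0.62, q = 0.000463, lost after centring) in the authors' deposited table. The transcripts known as miR398 targets thus did not share 1 direction. COPT2 was lower in *nac1L* (log2 -1.93, q = 0.000463) and in *nac25* (-1.18, q = 0.0102, lost after centring), and the importer gene COPT1 was lower in both (-0.62 and -0.74, q = 0.000463 each) in the authors' deposited table. SPL7 itself had log2 folds of 0.25 (q = 0.162) and 0.14 (q = 0.455) in the authors' deposited table, the second of which passed as higher after centring (0.41, q = 0.0172). The plantacyanin gene ARPN was higher in *nac1L* (log2 0.38, q = 0.00853) in the authors' deposited table. Of the 12 genes listed for copper regulation, 7 were left untested for too few reads, and of the 5 tested 1 was higher and 3 lower in *nac1L*, and 3 lower in *nac25*, or 2 higher and 1 lower there after centring. Reads of the microRNA genes are those of precursors, and of the 6 such genes listed 2 were tested and neither was called in either mutant. MIR398B had log2 folds of -1.06 in *nac1L* (q = 0.726) and 1.18 in *nac25* (q = 0.72), MIR398C had no test, and MIR398A had no test and a log2 fold of 0, in the authors' deposited table.

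Of the other superoxide dismutases, MSD2, a manganese enzyme, was higher in both mutants (log2 0.56 in *nac1L*, q = 0.000866, and 0.63 in *nac25*, q = 0.000463) in the authors' deposited table. FSD3, an iron enzyme of the plastid, was lower in *nac25* (log2 -0.32, q = 0.0369, lost after centring) in the authors' deposited table. The mitochondrial MSD1 and the plastid FSD2 were not called in either mutant. The log2 folds of FSD2 and FSD3 lay between -0.32 and -0.07 in the authors' deposited table, above those of FSD1, a difference between genes that was not tested.

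The window before the start of FSD1 held 1 GTAC, and that of CSD1, printed for comparison, held 2 GTAC as well as 2 matches to ACGTG, the core of abscisic acid response elements. COPT2 held no GTAC in the 250 bases before its start and 1 in the 50 bases after it. In the 250 bases before the annotated start of FSD1 the GTAC is in capitals, and in those of CSD1 both matches to ACGTG, on either strand, of which the second shares bases with a GTAC.
FSD1 (chr4:12887012-12887261, - strand): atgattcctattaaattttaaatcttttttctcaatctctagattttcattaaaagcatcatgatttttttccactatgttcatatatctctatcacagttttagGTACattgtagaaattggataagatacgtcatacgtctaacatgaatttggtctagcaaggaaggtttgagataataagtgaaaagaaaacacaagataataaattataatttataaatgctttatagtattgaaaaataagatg
CSD1 (chr1:2826810-2827059, + strand): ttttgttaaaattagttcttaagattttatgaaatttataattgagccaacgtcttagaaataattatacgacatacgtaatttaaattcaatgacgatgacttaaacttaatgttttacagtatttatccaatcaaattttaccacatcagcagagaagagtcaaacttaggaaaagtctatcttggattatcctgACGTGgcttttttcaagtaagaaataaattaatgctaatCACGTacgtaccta
On either strand and from 250 bases before to 50 after the start, GTAC was held by 39.0% of 27443 promoters and by 6 of the 10 enzyme genes, and ACGTG by 26.7% of promoters and by 4 of the 10 (PER1, CAT1, CSD1 and APX1). These 4 genes did not share 1 direction, since APX1 was lower. The windows can run into a neighbouring gene: at CSD3 such a gene lies 21 bases away and the GTAC 132 bases before the start. The GTAC of CAT3 lies after its start.

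Of the 3 catalases, CAT1 and CAT3 were higher in both mutants and CAT2 was called in neither. CAT1, a catalase of seeds and pollen that responds to abscisic acid, was 1.54-fold higher in *nac1L* (log2 0.62, q = 0.000463) and 1.66-fold higher in *nac25* (log2 0.73, q = 0.000463) in the authors' deposited table. CAT3, otherwise known from senescing and vascular tissue, was 1.38-fold higher in *nac1L* (log2 0.47, q = 0.00599) and 1.5-fold higher in *nac25* (log2 0.58, q = 0.000463) in the authors' deposited table. CAT2, the main catalase of leaves and also active in seedlings that break down oil, had log2 folds of 0.01 in *nac1L* (q = 0.984) and -0.16 in *nac25* (q = 0.463) in the authors' deposited table. The approximate 95% intervals of CAT2 were -0.31 to 0.32 and -0.46 to 0.14, with upper ends at a 1.25-fold rise in *nac1L* and a 1.10-fold rise in *nac25*. In *nac1L* the interval of CAT2 overlapped that of CAT3 and ended close to the lower end of that of CAT1. In *nac25* the interval of CAT2 overlapped neither. The differences between these genes were not tested. The CAT1 folds lay at the 94.4th percentile of all tested genes in *nac1L* and the 97.4th in *nac25*.

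CAT3 and CAT1 are direct neighbours on chromosome 1, on the same strand, with 95 bases between them, and both were called higher in both mutants. Those 95 bases, with a match to ACGTG (here CACGT, its other strand) in capitals, are printed because they hold the whole space in front of CAT1.
CAT1 (chr1:7146541-7146635, + strand): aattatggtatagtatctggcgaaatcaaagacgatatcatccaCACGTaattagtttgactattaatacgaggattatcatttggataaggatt
CAT1 had a further match after its start, and the promoter window of CAT3 held none. The coding sequences of CAT1 and CAT3 were identical at 76.9% of aligned bases, those of CAT1 and CAT2 at 80.3%, with no identical run longer than 32 bases, the longest coding stretch over which a read could match both exactly. Neither listed partner of catalases was called in *nac1L*, nor did either reach an unadjusted p under 0.05 there in Cuffdiff's test. The catalase chaperone gene NCA1 had log2 folds of 0.10 (q = 0.563) and -0.05 (q = 0.824), and LSD1, which binds catalases, had -0.16 (q = 0.52) and -0.52 (q = 0.0272, lost after centring), in the authors' deposited table.

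Ascorbate peroxidases were lower or not called. APX1, the main cytosolic ascorbate peroxidase, had log2 folds of -0.77 in *nac1L* and -1.57 in *nac25* (q = 0.000463 each) in the authors' deposited table, 1.71-fold and 2.96-fold below WT. APX6, an ascorbate peroxidase known from maturing and germinating seeds, had log2 folds of 0.24 in *nac1L* (q = 0.312) and -0.13 in *nac25* (q = 0.644) in the authors' deposited table, with approximate 95% intervals of -0.10 to 0.59 and -0.50 to 0.24. Neither interval overlaps that of APX1 (-1.14 to -0.40 and -2.32 to -0.81), although the difference between the genes was not tested. From the folds, the ratio of CAT1 to APX1 transcripts was 2.62-fold higher in *nac1L* than in WT and 4.90-fold higher in *nac25*, with no test of its own. Among 6 further ascorbate peroxidase genes 4 were tested, and APX3, the peroxisomal form, was lower in both mutants (log2 -0.39, q = 0.00519, and -0.77, q = 0.000463) in the authors' deposited table. APX1 and APX2, the closest cytosolic copy, share 71.8% of aligned coding bases with no identical run longer than 12, and APX2 had too few reads for a test.

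**Figure D2:**
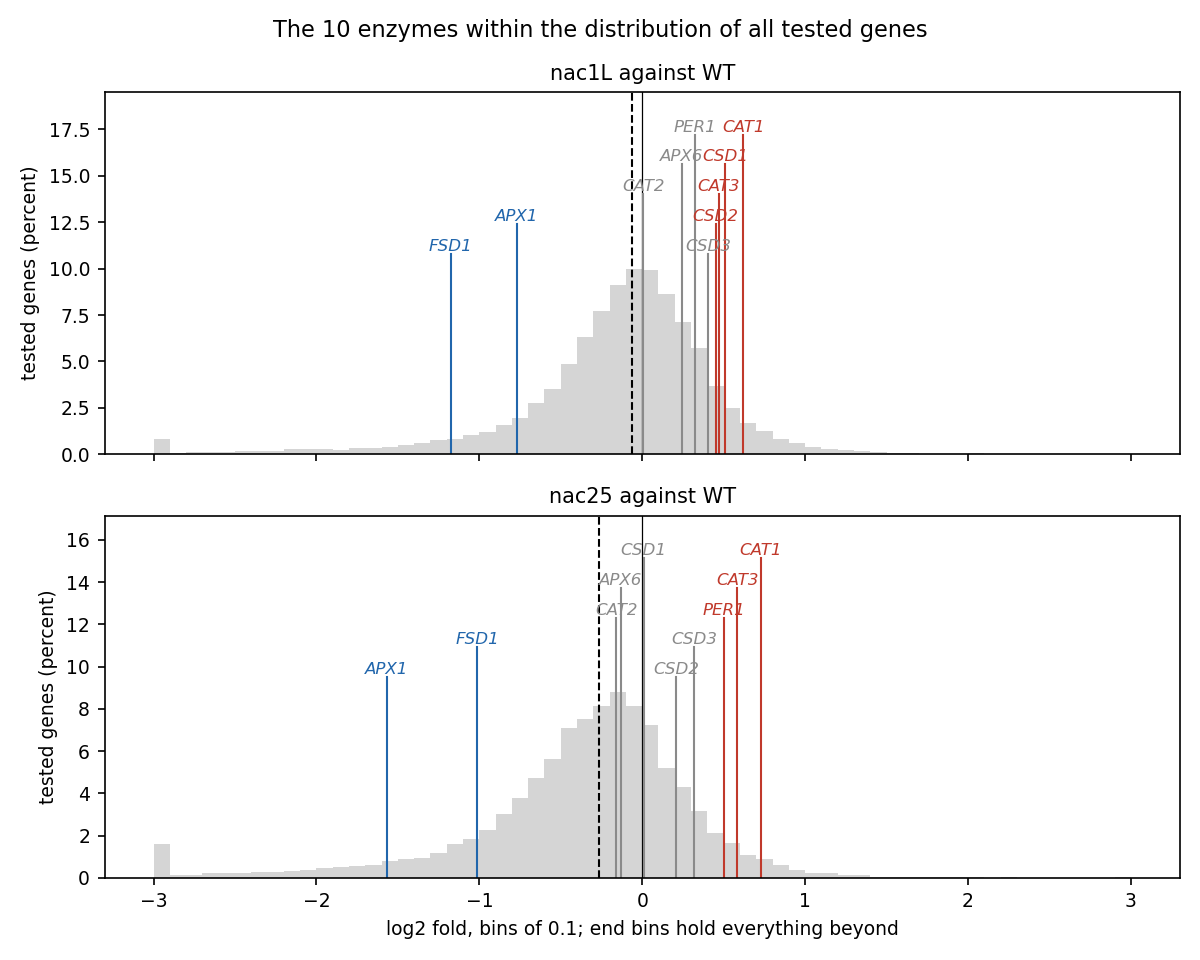
Distribution of log2 folds of all tested genes in *nac1L* and *nac25* against WT (grey bars, percent of tested genes per bin of 0.1), with the 10 enzymes as lines (red higher, blue lower, grey not called) and the median of all tested genes dashed. In *nac1L* and *nac25*, FSD1 (percentiles 6.2 and 13.2) and APX1 (11.1 and 6.5) lie toward the lower end and CAT1 (94.4 and 97.4) toward the upper end. The dashed median is at -0.07 and -0.27.

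Some genes for enzymes that restore ascorbate were lower as well. Of 10 genes for recycling ascorbate and glutathione 9 were tested, and 3 were lower in *nac1L* and 5 in *nac25*, none higher, with medians of -0.15 and -0.52. Among all tested genes 18.9% were lower in *nac1L* and 32.8% in *nac25*, shares that stand beside every list count against WT. MDAR2 (log2 -0.76 and -1.35), MDAR6 (-0.64 and -0.78) and MDAR4 (-0.34 and -0.75), all monodehydroascorbate reductase genes, were lower in *nac1L* and in *nac25* in the authors' deposited table, with the *nac1L* call of MDAR4 lost after centring. The dehydroascorbate reductase gene DHAR2 was lower in *nac25* (log2 -0.54, q = 0.00779), as was MDAR1 (-0.52), in the authors' deposited table, both calls lost after centring. Centring left 2 lower and 1 higher (GR1) in *nac1L*, and 3 lower and 2 higher (DHAR1 and GR2) in *nac25*. Synthesis of ascorbate and glutathione was mixed, with 2 of 9 genes higher and 2 lower in *nac1L* and 1 higher and 3 lower in *nac25*. VTC2, which encodes the enzyme that controls the pathway to ascorbate, was higher (log2 0.37 and 0.42) and VTC4, of a later step, lower (-1.55 and -1.77) in *nac1L* and in *nac25* in the authors' deposited table. GME was lower in both (log2 -0.37 and -0.55) and GSH2 in *nac25* (-0.42) in the authors' deposited table, calls that centring removed, and GSH1 was higher in *nac1L* (0.32). With VTC5 and GALDH added, centring gave 4 higher and 1 lower in *nac1L* and, with GSH1, the same counts in *nac25*.

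PER1 was 1.42-fold higher in *nac25* (log2 0.50, q = 0.000866) in the authors' deposited table. In *nac1L* its log2 fold of 0.32 had q = 0.0543 in the authors' deposited table, just past the threshold, and it passed after centring (0.39, q = 0.022). The direct comparison of the mutants gave PER1 a log2 fold of 0.18 (q = 0.344) in the authors' deposited table, so the difference between a called and an uncalled value was itself not called. The 250 bases before the start of PER1 hold the palindrome CACGTG (capitals), which counts as a match to ACGTG on each strand, and are printed because PER1 was, like CAT1, higher in *nac25*.
PER1 (chr1:17780179-17780428, + strand): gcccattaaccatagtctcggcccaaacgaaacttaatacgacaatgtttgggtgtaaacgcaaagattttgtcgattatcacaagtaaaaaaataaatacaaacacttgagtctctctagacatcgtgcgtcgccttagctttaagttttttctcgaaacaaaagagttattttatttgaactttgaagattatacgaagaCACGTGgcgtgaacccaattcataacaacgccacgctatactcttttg

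Other peroxiredoxins were called in both directions. Of 8 such genes 2 were higher and 3 lower in *nac1L*, and 1 higher and 4 lower in *nac25*, of which 1 higher and 1 lower were left after centring. The plastid forms PRXQ (log2 -0.66 and -0.80) and 2CPB (-0.58 and -0.66) were lower in both mutants, and 2CPA was lower in *nac25* (-0.41), in the authors' deposited table; of these *nac25* calls that of PRXQ was kept after centring. PRXIIF, the mitochondrial form, was higher in both (log2 0.42, q = 0.00193, and 0.36, q = 0.015) in the authors' deposited table. PRXIIC was higher in *nac1L* (0.33) and PRXIIE lower in both (-0.40 and -0.34, the second lost after centring) in the authors' deposited table. Of 4 genes for thioredoxin reductases, which feed electrons to peroxiredoxins, and sulfiredoxin, 3 were lower in both mutants. NTRA (log2 -0.80 and -0.96), NTRB (-0.82 and -0.99) and NTRC (-0.84 and -1.27) each had q = 0.000463 in *nac1L* and *nac25* in the authors' deposited table, and all 3 were also lower after centring. The sulfiredoxin gene SRX had log2 folds of -0.16 (q = 0.461) and -0.11 (q = 0.631) in the authors' deposited table. Of 8 glutathione peroxidase-like genes 1 was higher and 1 lower in *nac1L*, and 4 lower in *nac25*, or 1 higher and 2 lower there after centring. GPX2 was lower in both (log2 -1.28 and -1.88) and GPX8 in *nac25* (-1.01) in the authors' deposited table, also after centring. GPX6 was higher in *nac1L* (0.31) in the authors' deposited table, whereas the *nac25* calls of GPX3 (-0.69) and GPX5 (-0.43) were lost after centring.

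**Figure D3:**
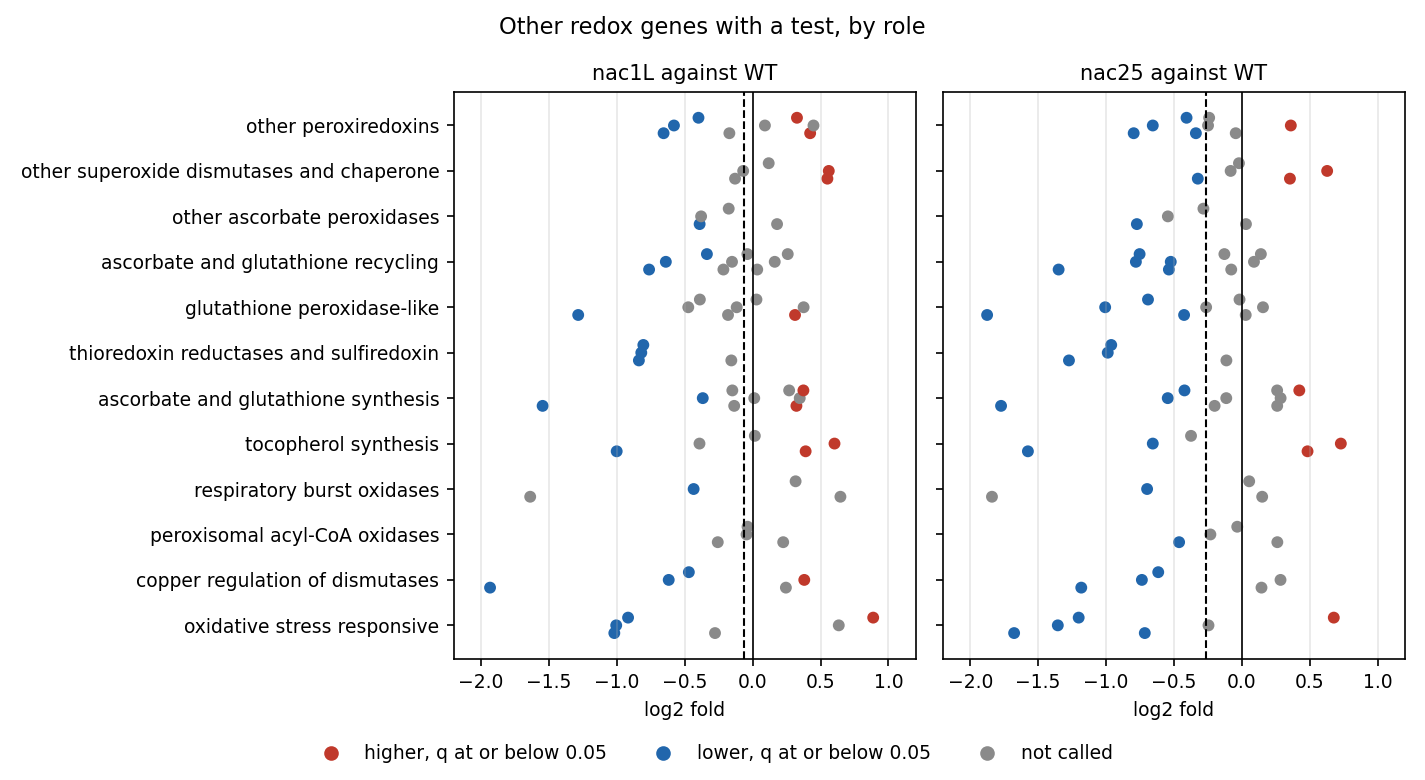
Log2 folds of tested genes of 12 other redox and copper lists in *nac1L* and *nac25* against WT (each point 1 gene; red higher, blue lower, grey not called; dashed line the median of all tested genes). The 3 thioredoxin reductases lie between -1.27 and -0.80, whereas the synthesis and tocopherol lists hold genes on both sides of 0.

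Tocopherols protect seed lipids from oxidation. Of 5 genes of their synthesis 2 were higher and 1 lower in *nac1L*, and 2 higher and 2 lower in *nac25*. VTE1, which encodes tocopherol cyclase, was higher (log2 0.60 and 0.73), as was HPPD of the first step (0.39 and 0.48), and VTE4, of the last, was lower (-1.0 and -1.58), in *nac1L* and in *nac25* in the authors' deposited table. VTE3 was lower in *nac25* (log2 -0.66, lost after centring) in the authors' deposited table. Among sources of oxidants, the NADPH oxidase gene RBOHD was lower in both mutants (log2 -0.43, q = 0.00193, and -0.70, q = 0.000463, the second lost after centring) in the authors' deposited table, and 6 of the 10 genes of that family were left untested for too few reads. RBOHI (log2 0.65, q = 0.0556) in *nac1L* in the authors' deposited table passed as higher after centring. Of 4 acyl-CoA oxidase genes, whose enzymes release hydrogen peroxide in oil breakdown, ACX2 was lower in *nac25* (log2 -0.46, q = 0.000866, lost after centring) in the authors' deposited table and none was called in *nac1L* by Cuffdiff (1 at an unadjusted p under 0.05). ACX1 (0.26, q = 0.0795) in *nac25* in the authors' deposited table passed as higher after centring. Transcripts known to respond to oxidants were called in both directions, with 3 of 6 lower and 1 higher in *nac1L*, and 4 lower and 1 higher in *nac25*. The ferritin gene FER1 (log2 -1.0 and -1.68), UPOX (-1.02 and -1.20) and BAP1 (-0.92 and -1.36) were lower and the zinc finger gene ZAT10 (0.89 and 0.68) higher in *nac1L* and in *nac25* in the authors' deposited table. ZAT12 was lower in *nac25* (-0.71, lost after centring) in the authors' deposited table, and OXI1 (0.63, q = 0.0601) in *nac1L* passed as higher after centring. Over all 14 lists beside the 10 enzymes, 75 of 95 genes were tested, and 11 were higher and 21 lower in *nac1L* and 7 higher and 33 lower in *nac25*. Among all tested genes 9.62% were higher and 18.9% lower in *nac1L*, and 6.25% and 32.8% in *nac25*. After centring the list counts were 16 and 19 in *nac1L* and 16 and 16 in *nac25*. The shares of all tested genes were then 12.4% and 15.2% in *nac1L*, and 15.8% and 14.8% in *nac25*.

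The mutants were also compared with each other. Of the 10 enzymes 2 were called, APX1 and CSD1, both lower in *nac25* than in *nac1L*, where the share of calls among 17743 tested genes was 12.3% (0.609% higher and 11.7% lower). APX1 was 1.74-fold lower in *nac25* (log2 -0.80, q = 0.000463) in the authors' deposited table, and it was also called after centring (-0.60, q = 0.0168). CSD1 was 1.41-fold lower in *nac25* (log2 -0.50, q = 0.0152) in the authors' deposited table, a call lost after centring (-0.30, q = 0.215) and when p-values were adjusted within this comparison alone (q = 0.0514). CSD2, called against WT in *nac1L* alone, had a log2 fold of -0.24 between the mutants (q = 0.127) in the authors' deposited table. For the 8 not called the log2 folds between mutants ran from -0.37 for APX6 to 0.18 for PER1 in the authors' deposited table. The median over all tested genes was -0.20, and CAT1 had a log2 fold of 0.11 (q = 0.528) in the authors' deposited table, or 0.31 (q = 0.044) after centring. CAT1 and PER1 (0.38, q = 0.0315) were thus called higher in *nac25* than in *nac1L* after centring, which left 3 of the 10 called (2 higher and 1 lower; all genes 4.27%, with 2.72% and 1.56%). Of 6 seed reserve genes tested between the mutants, 2 were higher in *nac25*, and 6 after centring, and their part in the CAT1 and PER1 values was not tested. Of the other pathway genes, 73 were tested between mutants and 11 were lower in *nac25*, none higher, or 1 higher (VTE1) and 3 lower (PRXIIC, FER1 and OXI1) after centring.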

How the data were processed

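The 9 RNA-seq libraries (3 genotypes, 3 replicates each) came from stranded libraries of whole seeds, per the labels' protocols. Tools named were TopHat2 2.1.0, Cuffdiff 2.2.1.3 and FastQC 0.11.5, per the submitters' processing notes. Build, annotation and normalization: not given in the sources used here. For each gene and pair the deposited table gives a log2 fold, a p-value and a q-value (per the file headers), and the fold was read as the second genotype over the first. Adjusting all 54131 deposited p-values jointly by Benjamini-Hochberg returned the q-values within 5.27e-07. The smallest deposited p-value is 5e-05. The fold column also holds 2222 infinite cells and 3122 spreadsheet errors, none of them in the values of the 10 enzymes.

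The calls are the authors' own Cuffdiff calls. Approximate standard errors and 95% intervals were derived as the size of the fold over the normal deviate of the deposited p; at the smallest p they are upper bounds. Centring subtracted the median fold of all tested genes, kept that standard error and adjusted the new p-values over all tests, which is conservative at the smallest p. As the medians are negative, this caution falls on lower calls, some of which can be lost for that reason, while higher folds grow. Centring was tested on simulated data with a shared shift and few changed genes, their signs drawn evenly. That test cannot tell whether the medians here are an offset or a real lowering of many genes. The enzymes and all lists were chosen with earlier results of these data known. Named were all 10 enzymes, up to 4 called genes with the largest folds of each list, and CCS, NCA1, SPL7, MIR398 genes, NAC25, NAC1L and EXPA2; other listed genes (such as MSD1, FSD2, APX2, MDAR1, PRXIIC or GSH1) were named after their values were seen. Identity was computed on coding bases in place of proteins, and windows allowing an unpaired base were added after seeing the data. All 128 listed genes matched RefSeq identifiers. Python 3.11.15, numpy 2.4.6, pandas 2.3.3, scipy 1.17.1, biopython 1.88 and matplotlib 3.10.9 were used.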

Additional observations from a re-analysis of the deposited data

Results flagged for a closer look

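The authors' test between the mutants is also a test of whether a gene's difference from WT differs between *nac1L* and *nac25*, and it called 18 of the 94 listed genes tested there, 3 higher and 15 lower, where the share of calls among all tested genes was 12.3% (0.609% higher and 11.7% lower). Of the 10 enzymes these were APX1 (log2 -0.80) and CSD1 (-0.50), both lower in *nac25*, in the authors' deposited table. Of the other redox genes, APX3 (log2 -0.38), MDAR2 (-0.59), MDAR4 (-0.42), DHAR2 (-0.50), GPX2 (-0.59), GPX3 (-0.51), FER1 (-0.67), MDAR1 (-0.31), GR1 (-0.34), PRXIIC (-0.58) and OXI1 (-0.88) were lower in *nac25* than in *nac1L* in the authors' deposited table. After centring, APX1, FER1, PRXIIC and OXI1 were still called and the other 9 of these redox genes were not. Among the tissue and reserve genes, EXPA2 (log2 -0.67) and LTP1 (-1.30) were lower and PDF1 (0.37), the cruciferin gene CRB (0.68) and the albumin gene SESA2 (0.49) higher in *nac25* in the authors' deposited table, and all 5 were also called after centring. Of the seed reserve genes 6 were tested between the mutants, and centring raised those called higher in *nac25* from 2 to 6.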

How the results depend on the processing

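The CAT1, CAT3, FSD1 and APX1 calls against WT held under q at or below 0.01, adjustment within 1 comparison and centring. Of 90 settings for single enzymes 78 left direction and call as they were, 4 added a call, 4 removed one, and 4 changed the sign of an uncalled fold, all under centring: CAT2 (0.11) and APX6 (0.13) in *nac25* against WT, and CAT2 (0.034) and CSD3 (0.11) between the mutants. A minimum of 2-fold left 1 enzyme called in *nac1L* (0 higher, 1 lower), 2 in *nac25* (0 higher) and 0 between the mutants (0 lower); over all genes it left 1287 in *nac1L* (157 higher, 1130 lower), 2137 in *nac25* (124 and 2013) and 180 between mutants (13 and 167). At q at or below 0.01, 1 enzyme, lower, was left between the mutants, and over all genes 1009 were higher in *nac1L*, 750 higher in *nac25*, and 773 called between mutants (60 higher, 713 lower). Adjusted within that comparison alone, 1 enzyme was called between mutants, lower, and 965 genes (64 and 901). Centring gave 2861 higher and 2681 lower genes in *nac25*, and 758 between mutants (482 and 276), with 2 enzymes higher and 1 lower there. Since centring subtracts a negative median, folds rise by construction. Lower calls at the smallest p can also be lost because their standard error is an upper bound. No paired analysis was possible because the table has no value per library; for the same reason no library could be left out and no other count model or normalization tried, and depth limits could not be set.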
